A study of Mus musculus with 8 samples.

Results

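The R848 response of wild-type (WT) macrophages was read from 4 of the 8 messenger RNA libraries in the series, 2 untreated and 2 exposed to R848 (100 ng/ml) over 6 h. The 4 libraries were chosen by their labels alone, and every gene in the count table entered. The cells were bone-marrow-derived macrophages (BMDM), primary mouse cells cultured from marrow with M-CSF (20 ng/ml), the growth factor of this lineage, and labelled WT. The other 4 libraries came from KAT8-deficient BMDM, untreated or treated in the same way, and were not part of the comparison. They entered the filter on low counts, the scaling and the estimate of the spread between replicates. The labels do not give strain, age, sex or the source of the WT cells, nor do they state whether replicates stem from different animals or cultures, so p-values measure only the spread between these libraries.

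R848, or resiquimod, is a synthetic imidazoquinoline that activates TLR7, a receptor for single-stranded RNA in the endosome. TLR7 signals through MyD88 and the IRAK kinases to NF-kB, the MAP kinases and IRF factors, and macrophages answer with cytokines, chemokines and feedback inhibitors. Activated macrophages are also known to change their lipid, arginine and redox metabolism and the receptors they carry.

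Total counts ran from 18550977 to 21384532 in the 4 WT libraries. Of 34745 genes in the table, 14040 had enough counts to be tested. Levels are given as CPM, counts scaled to library size after TMM normalisation, and changes as log2 fold changes of R848 over untreated with their standard error (SE). "Rose" and "fell" mean an adjusted p under 0.05 in edgeR's quasi-likelihood test with Benjamini-Hochberg adjustment over all genes tested, and CPM values are listed as untreated replicates 1 and 2, then R848 replicates 1 and 2. A gene named as rising or falling did so in each of the 16 alternative fits that gave it an adjusted p, 8 of which left out 1 library each, unless a lost call is named beside it. Several of the 15 listed macrophage markers were abundant in all 4 libraries, but not all of them. Aif1 stood at 4.24, 3.64, 5.33 and 4.44 CPM, and Cd163 held 7, 0, 2 and 0 counts. Lyz2 (lysozyme) stood at 11470, 11750, 12140 and 11030 CPM, and Cd68 at 1953, 1956, 1858 and 1814. Kat8 itself, at 17.0, 17.9, 18.0 and 16.0 CPM, did not pass the test.

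R848 changed 1916 genes, 13.6% of those tested. Of these, 975 rose (6.94% of genes tested) and 941 fell (6.7%). Counts of list members given below are to be read against these 2 shares. The numbers of rises and falls were near equal, but the rises reached further. A log2 change of at least 1 was reached by 241 rises (1.72% of genes tested) and 113 falls (0.805%), and one of at least 2 by 64 rises and 8 falls. The median size was 0.555 for rises (interquartile range 0.370 to 0.976) and 0.522 for falls (0.374 to 0.758), so most changes in both directions were below 1. The median over all 14040 genes was -0.00. The called genes that rose held 80368 CPM in untreated and 123517 CPM in treated cells, in group means, and those that fell 112935 and 83899. In these bulk libraries, fewer cells of a type and less RNA per cell cannot be told apart. Leaving out 1 WT library lowered the counts, most without R848 replicate 1 (475 higher and 402 lower), then without R848 replicate 2 (542 and 508) and without untreated replicate 2 (588 and 578). In every alternative fit that gave them an adjusted p, 397 of the rises and 305 of the falls were kept.

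**Figure D1:**
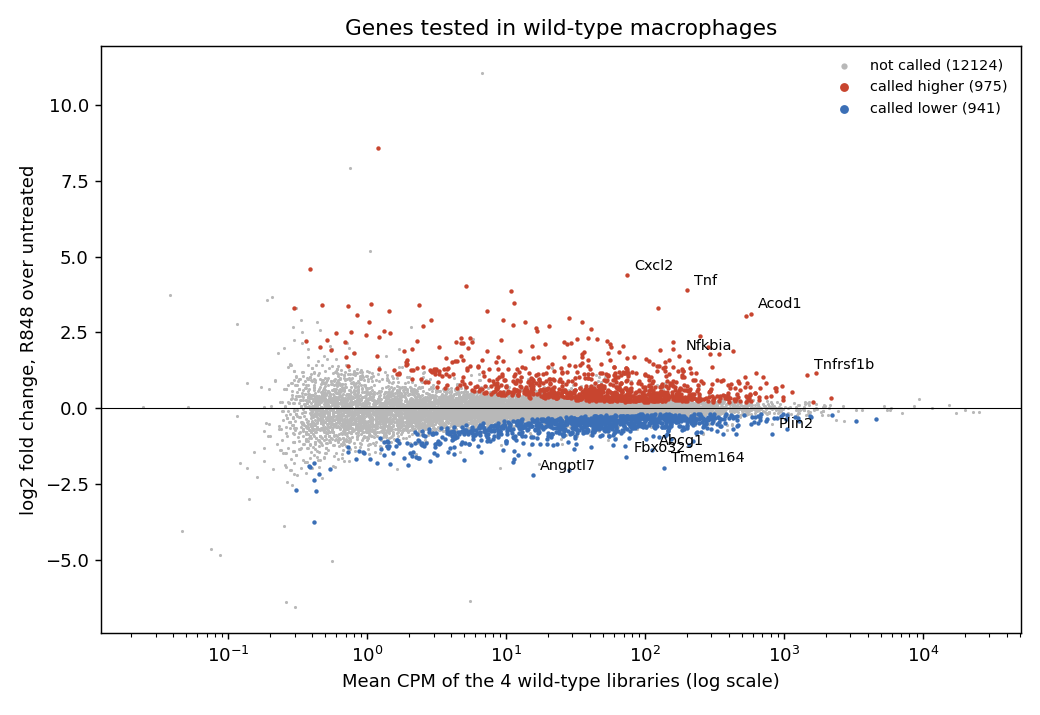
Log2 fold change (R848 over untreated, vertical axis) against the mean CPM of the 4 WT libraries (horizontal axis, log scale) for the 14040 genes tested. Each point is a gene, red for the 975 that rose and blue for the 941 that fell; red points reach further from 0 than blue ones at the same level.

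The largest rises included those of a metabolite receptor, chemokines and an enzyme. Hcar2, the receptor for niacin and ketone body acids, stood at 1.35, 1.47, 20.5 and 20.3 CPM. Cxcl2 (ENSMUSG00000058427, chromosome 5, 90903871 to 90905938, GRCm38), a chemokine that attracts neutrophils, stood at 3.91, 9.83, 146 and 137 CPM. Both genes were low in the untreated libraries and high in both treated ones, without overlap, as were 27.7% of all genes in this direction. Their log2 changes were 3.85 (SE 0.22, edgeR adjusted p = 7.05e-05) and 4.39 (SE 0.46, edgeR adjusted p = 0.000479). Acod1 (ENSMUSG00000022126, chromosome 14, 103046977 to 103056573, GRCm38), whose enzyme makes itaconate from a Krebs cycle intermediate, stood at 118, 121, 1083 and 985 CPM and rose by 3.12 (SE 0.18, edgeR adjusted p = 7.05e-05). The 2 treated libraries differed by far less than treated from untreated.

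The 25 largest rises also included receptors, sensors and enzymes. Fpr1 and Fpr2, receptors for formylated peptides, rose by 2.72 (SE 0.21) and 2.63 (SE 0.25), although reads of Fpr2 may be shared with near-identical family members. Nlrp3, the inflammasome sensor, rose by 2.61 (SE 0.23) and Gpr84, a receptor for medium-chain fatty acids, by 2.29 (SE 0.15). Cd38, an ectoenzyme that consumes NAD, rose by 2.29 (SE 0.16). Tarm1, an activating receptor of myeloid cells, rose by 2.89 (SE 0.32), and Ppfia3, a liprin scaffold, by 2.32 (SE 0.29). Gbp5, a guanylate-binding protein, rose by 2.84 (SE 0.20) and H2-M2, a non-classical class I gene, by 2.83 (SE 0.19). Il12b, at 0, 1.25, 11.4 and 7.86 CPM, rose by 4.02 (SE 0.73), a call that was lost without R848 replicate 1 (3.72, edgeR adjusted p = 0.0526) and in DESeq2 (adjusted p = 0.122). Il1b, at 0.652, 2.55, 9.44 and 6.23 CPM, rose by 2.32 (SE 0.56). Its call was lost without R848 replicate 1 (1.99, edgeR adjusted p = 0.149) or 2 (2.58, 0.0569), without untreated replicate 1 (1.60, 0.101), in DESeq2 (0.128) and with robust spread (0.0792).

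Of genes often followed in such experiments, Tnf, Ccl3 and Cxcl10 were among the 25 largest rises, while several others did not pass. Il6, a cytokine of the acute phase, was low in all 4 libraries, at 1.16, 1.74, 1.44 and 1.28 CPM (log2 -0.08, SE 0.40, edgeR adjusted p = 0.919), and the groups overlapped. Ifnb1 held 0, 1, 0 and 0 counts and was not tested. Tlr7, the receptor of the agonist, stood at 30.2, 33.9, 84.6 and 35.2 CPM, so that 1 treated library was high and the other lay just above the untreated ones (log2 0.90, SE 0.53, edgeR adjusted p = 0.314). Il10, which encodes an anti-inflammatory cytokine, stood at 3.54, 3.20, 1.28 and 0.919 CPM. It was lower in both treated libraries and fell by 1.62 (SE 0.23, edgeR adjusted p = 0.00251).

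Among transcription factors, 41 of 606 tested genes rose (6.77%) and 38 fell (6.27%), close to the shares over all genes. The 41 rises became 24, 22 and 27 without R848 replicate 1, R848 replicate 2 and untreated replicate 2, and the 38 falls 16, 24 and 23. All 11 tested genes of NF-kB subunits and IkB proteins rose, with a median log2 change of 1.11, against a median of -0.00 over all genes. The 3 largest changes were those of IkB proteins, which bind NF-kB dimers and hold them or tune their target choice. Nfkbie stood at 24.6, 29.5, 112 and 113 CPM, and Nfkbiz, a nuclear cofactor, at 22.7, 22.4, 89.2 and 92.2 CPM. Nfkbia, the classical inhibitor, stood at 79.8, 82.1, 267 and 271 CPM. In all 3 genes, treated libraries lay above untreated ones and close to each other, and the changes were 2.06 (SE 0.20), 2.01 (SE 0.14) and 1.73 (SE 0.15). The changes of the other members were smaller. Nfkb1 rose by 1.21 (SE 0.12), Relb by 1.21 (SE 0.11), Nfkb2 by 1.11 (SE 0.12) and the cofactor gene Bcl3 by 1.01 (SE 0.14). Nfkbib, another inhibitor gene, rose by 0.54 (SE 0.09), and Nfkbid, a nuclear cofactor, by 0.49 (SE 0.14, edgeR adjusted p = 0.0449). The call of Nfkbid was lost without any 1 WT library, without either untreated KAT8-deficient replicate and with the replicate block. Leaving out any 1 WT library kept 10 of the 11 calls.

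The DNA motif that NF-kB dimers bind, called the kB motif, was counted in RefSeq promoters of build GRCm38.p6, from 250 bases before to 50 after each start site, on both strands. The following promoters are shown because they belong to genes that rose strongly and hold the motif, which is in capitals. The 3 chemokine genes are neighbours on chromosome 5 and carry the same run of capitals before their start sites. In each window the start site follows base 250.
Cxcl1 (chr5:90890995-90891294, plus strand): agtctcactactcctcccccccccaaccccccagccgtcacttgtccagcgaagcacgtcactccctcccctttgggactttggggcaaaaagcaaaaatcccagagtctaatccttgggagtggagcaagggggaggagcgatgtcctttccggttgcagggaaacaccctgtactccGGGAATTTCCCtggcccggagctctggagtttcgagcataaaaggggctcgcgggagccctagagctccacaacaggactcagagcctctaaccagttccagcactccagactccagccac
Cxcl2 (chr5:90903649-90903948, plus strand): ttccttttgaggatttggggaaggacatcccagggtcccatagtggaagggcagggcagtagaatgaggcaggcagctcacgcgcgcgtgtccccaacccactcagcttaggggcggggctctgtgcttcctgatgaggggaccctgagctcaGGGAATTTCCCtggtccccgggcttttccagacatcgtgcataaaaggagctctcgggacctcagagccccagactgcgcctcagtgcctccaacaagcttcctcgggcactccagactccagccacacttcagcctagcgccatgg
Cxcl3 (chr5:90785851-90786150, plus strand): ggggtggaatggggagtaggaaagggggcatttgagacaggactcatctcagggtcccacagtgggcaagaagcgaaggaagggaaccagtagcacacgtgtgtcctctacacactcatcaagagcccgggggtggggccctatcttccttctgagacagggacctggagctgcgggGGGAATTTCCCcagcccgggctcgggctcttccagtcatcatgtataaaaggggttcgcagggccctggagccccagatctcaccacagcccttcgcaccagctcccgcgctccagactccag
Nfkbia (chr12:55492598-55492897, minus strand): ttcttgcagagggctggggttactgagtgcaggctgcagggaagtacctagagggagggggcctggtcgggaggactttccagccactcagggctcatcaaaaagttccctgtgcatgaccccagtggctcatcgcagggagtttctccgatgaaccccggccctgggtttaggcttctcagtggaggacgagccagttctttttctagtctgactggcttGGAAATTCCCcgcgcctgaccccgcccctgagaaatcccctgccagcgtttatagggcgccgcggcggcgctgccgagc
Tlr2 (chr3:83841559-83841858, minus strand): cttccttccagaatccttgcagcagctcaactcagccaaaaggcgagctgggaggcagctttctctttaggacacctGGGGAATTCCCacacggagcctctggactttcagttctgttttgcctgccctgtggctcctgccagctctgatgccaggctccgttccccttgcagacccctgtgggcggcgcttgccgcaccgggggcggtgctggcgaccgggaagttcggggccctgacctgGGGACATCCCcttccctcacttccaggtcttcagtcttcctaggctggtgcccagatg
The motif began 71, 97 and 73 bases before the start site in Cxcl1, Cxcl2 and Cxcl3. Over all tested genes with a promoter in the table, 6.34% of 10555 held the kB motif. The share was 10.5% of 736 genes that rose, and 18.1% of 177 that rose by at least 1. It was 7.23% of 719 genes that fell and 6.76% of 74 that fell by at least 1. Promoters were searched for 23 of the 25 largest rises, and 8 of these genes held the motif. They were searched for 18 of the 25 largest falls, and 0 of these held it. The other genes of both sets were not searched, so these counts do not cover all 25. Of the NF-kB list, 8 of 11 had a promoter and 6 held the motif. In all these shares a gene held a motif if any of its promoters did. Tested genes had 1.28 promoters on average, those that rose 1.25 and those that fell 1.41. The AP-1 motif TGANTCA was in 6.5% of tested genes, 8.15% of those that rose, 13.6% of those that rose by at least 1 and 9.18% of those that fell. The interferon response motif, GAAA followed after any 2 bases by GAAA, was in 3.92%, 7.47%, 10.7% and 4.45%. Counted per promoter rather than per gene, over all 32851 promoters in the table, the shares were 4.51% for the kB motif, 7.81% for AP-1 and 3.44% for the interferon motif. Motif matches describe letters in these windows and are not evidence of binding.

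Outside NF-kB, factors with rises and factors with falls stood side by side within families. Of 4 C/EBP genes, Cebpd stood at 14.6, 16.3, 34.0 and 35.9 CPM and rose by 1.18 (SE 0.10, edgeR adjusted p = 0.000206). Cebpa (ENSMUSG00000034957, chromosome 7, 35119293 to 35121928, GRCm38), a factor of myeloid differentiation, stood at 316, 288, 146 and 141 CPM. It was lower in both treated libraries, without overlap, as were 28.3% of all genes in this direction, and fell by 1.07 (SE 0.10, edgeR adjusted p = 0.000268). In the ETS family Ets2 rose by 1.70 (SE 0.12), while Fli1 fell by 0.72 (SE 0.09). In the IRF family Irf1, a driver of interferon-responsive genes, rose by 1.28 (SE 0.14), and Irf8, a myeloid lineage factor, fell by 0.56 (SE 0.07).

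The oxygen and xenobiotic sensors moved in 2 directions. Hif1a stood at 149, 138, 225 and 215 CPM and rose by 0.62 (SE 0.07, edgeR adjusted p = 0.000566). Its paralogue Epas1, which encodes HIF-2 alpha, stood at 161, 172, 107 and 109 CPM and fell by 0.62 (SE 0.07, edgeR adjusted p = 0.000598). The 2 genes were at similar CPM before treatment and differed in both treated libraries. Ahr, the aryl hydrocarbon receptor, rose by 1.12 (SE 0.16). In all, 4 of 12 tested genes of this pathway rose and 1 fell (median -0.03), with 2 rises left without R848 replicate 2, either untreated replicate or either untreated KAT8-deficient replicate.

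Lineage factors and nuclear receptors had more falls than rises. Of 24 tested lineage factors 8 fell and 2 rose (median -0.13). Bhlhe40, a repressor tied to the clock and to cytokine control, fell by 0.49 (SE 0.06). Of 30 tested nuclear receptors 5 fell and 1 rose (median -0.27), and 25 of the 30 had a log2 change below 0. Pparg, the receptor for fatty acid ligands, fell by 0.64 (SE 0.09). The 5 falls became 1 without R848 replicate 1, 2 without R848 replicate 2, and 3 without either untreated replicate or either KAT8-deficient R848 replicate. The rise was lost without R848 replicate 2 or untreated replicate 1. The 2 lineage rises became 0 without R848 replicate 2, and 1 without R848 replicate 1, untreated replicate 1 or either untreated KAT8-deficient replicate. The 8 lineage falls became 4 without R848 replicate 1 and 5 without R848 replicate 2.

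Immediate early and growth factors held changes in both directions. Of 28 AP-1, ATF and CREB genes 3 rose and 3 fell (10.7% each, against 6.94% and 6.7% of all genes), among them Junb (0.62, SE 0.11), Batf (0.78, SE 0.12) and Nfil3 (-0.57, SE 0.09). The 3 falls became 1 without R848 replicate 1, without R848 replicate 2 or without untreated replicate 2, and the 3 rises became 2 without R848 replicate 2. Of 16 EGR and KLF genes Klf7 rose by 0.62 (SE 0.08) and 3 fell (18.8%), including Klf4 by 0.67 (SE 0.09). The falls became 1 without R848 replicate 1 or untreated replicate 2, 2 without R848 replicate 2 and 5 without untreated replicate 1. In the MYC network, 3 of 22 genes fell. They were Mycn, the neural MYC paralogue, at 5.87, 5.43, 2.19 and 2.30 CPM, and the MAX partners Mxd4 (-0.65, SE 0.08) and Mxi1 (-0.66, SE 0.07). Myc did not pass, at 15.6, 16.6, 17.8 and 19.9 CPM. The forkhead gene Foxo3, which promotes growth arrest genes, fell by 0.60 (SE 0.08), and Foxp4 rose by 0.98 (SE 0.13). Of 346 tested Zfp genes 10 rose (2.89%) and 5 fell (1.45%), below the 6.94% and 6.7% of all genes. The 10 rises became 1 without either R848 replicate or untreated replicate 2, 6 without untreated replicate 1, and 4 and 6 without the untreated KAT8-deficient replicates 1 and 2, and DESeq2 called 0 higher and the 4 WT libraries alone 3. The 5 falls became 2 without R848 replicate 1 or untreated replicate 2 and 3 without R848 replicate 2.

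**Figure D2:**
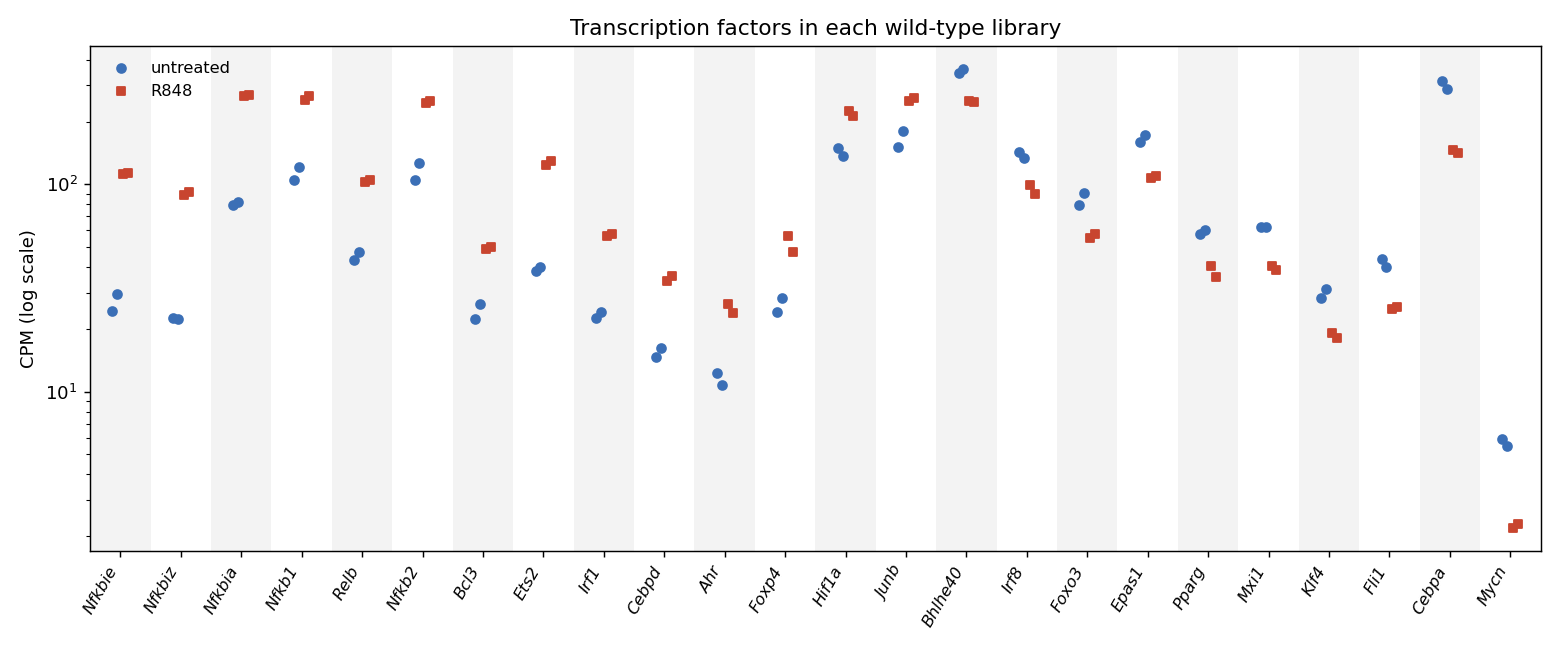
CPM (vertical axis, log scale) of 24 transcription factor genes in each WT library, with blue circles for the 2 untreated and red squares for the 2 R848 libraries. The genes run from rises at the left (Nfkbie) to falls at the right (Mycn), and the 2 libraries of a group lie close together for each gene.

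Of 744 tested metabolic genes 91 rose (12.2%) and 66 fell (8.87%), with a median of -0.01. The list with the most calls was that of solute carriers, the largest, with 25 of 220 higher (11.4%) and 17 lower (7.73%). Without R848 replicate 1 or 2 the metabolic counts became 56 and 39. The solute carrier rises became 16, 15 and 16 without R848 replicate 1, R848 replicate 2 and untreated replicate 1, and the falls 9 without either R848 replicate or untreated replicate 2.

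**Figure D3:**
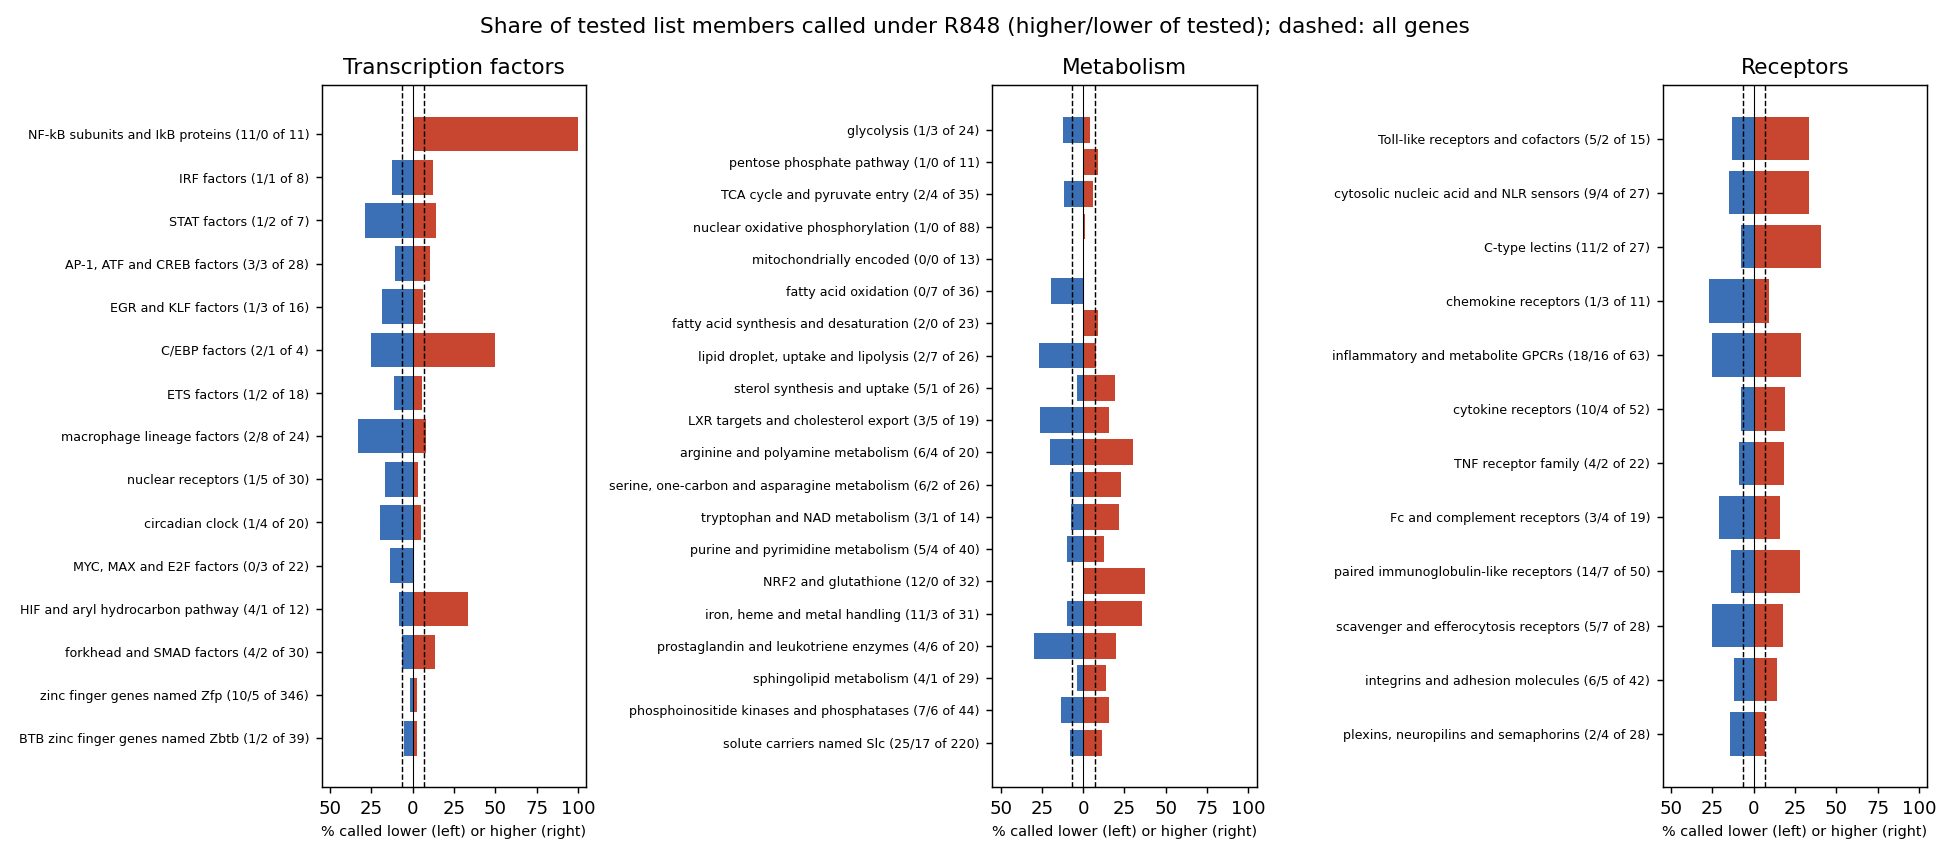
Percentage of tested members of each list that rose (red, to the right) or fell (blue, to the left), for lists of transcription factors, metabolism and receptors, with counts beside each name. Dashed lines mark 6.94% and 6.7%, the shares over all genes; the NF-kB bar reaches 100%, and fatty acid oxidation has bars on the lowered side only.

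Fatty acid use was on the lowered side. Fatty acid oxidation had 7 of 36 tested genes lower (median -0.19), and 31 of the 36 were below 0. Abcd2, which carries long-chain fatty acids into peroxisomes, had the largest fall of the list. It stood at 23.7, 19.4, 8.11 and 6.84 CPM, with both treated libraries far below the untreated ones, and fell by 1.53 (SE 0.14). Cpt1a (ENSMUSG00000024900, chromosome 19, 3322334 to 3385733, GRCm38), the gate of mitochondrial fatty acid entry, stood at 144, 148, 92.3 and 91.1 CPM and fell by 0.67 (SE 0.06, edgeR adjusted p = 0.000175). The peroxisomal oxidase Acox3 fell by 0.49 (SE 0.06) and the mitochondrial thiolase Acaa2 by 0.51 (SE 0.07). Without R848 replicate 1 the 7 falls of this list became 4.

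Genes of lipid storage had more falls than rises. Of 26 genes of lipid droplets, uptake and lipolysis 7 fell and 2 rose (median -0.12), and 7 falls were counted without each library in turn. Slc27a6, a fatty acid transporter, had the largest fall of this list, at 16.5, 20.1, 6.19 and 6.18 CPM, and fell by 1.56 (SE 0.13). Plin2, which coats lipid droplets, stood at 1006, 1090.4, 585 and 583 CPM and fell by 0.84 (SE 0.07, edgeR adjusted p = 0.000143). Lpin1, a phosphatidate phosphatase, fell by 0.93 (SE 0.12), and the lipase gene Pnpla2 by 0.60 (SE 0.09). The fatty acid carrier Fabp3 went the other way, at 16.9, 20.5, 51.6 and 47.5 CPM, with a rise of 1.41 (SE 0.11), although a near-identical pseudogene may share its reads. Agpat4, an acyltransferase of phospholipid synthesis, rose by 0.75 (SE 0.10).

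Cholesterol genes included rises and falls. Sterol synthesis and uptake had 5 of 26 genes higher and 1 lower (median 0.15), including Insig1, which holds the sterol sensor in the endoplasmic reticulum (0.48, SE 0.06). Of 19 LXR targets and export genes, 3 rose and 5 fell (median -0.23). The 2 cholesterol exporters moved apart. Abca1, which loads apolipoprotein A-I, stood at 249.8, 246, 445 and 472 CPM and rose by 0.89 (SE 0.07, edgeR adjusted p = 0.000173). Abcg1 (ENSMUSG00000024030, chromosome 17, 31057675 to 31117988, GRCm38), which loads HDL, stood at 149, 175, 61.1 and 61.5 CPM and fell by 1.40 (SE 0.09, edgeR adjusted p = 9.32e-05). Nceh1, a cholesterol ester hydrolase, fell by 0.59 (SE 0.07), and the esterifying Soat1 by 0.48 (SE 0.06). Ch25h, which makes 25-hydroxycholesterol, rose by 1.20 (SE 0.19) from a low level, while Gpr183, the receptor for its further product, stood at 5.54, 7.01, 1.97 and 2.40 CPM and fell by 1.51 (SE 0.20). The 5 sterol rises became 3 without R848 replicate 1 or without either untreated replicate, and 2 without R848 replicate 2, and the 1 fall was lost without either R848 replicate or untreated replicate 2. The 5 falls of the export list became 3 without either R848 replicate or without either KAT8-deficient R848 replicate, and its 3 rises became 2 without R848 replicate 2 or untreated replicate 1.

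Arginine, polyamine and nitric oxide genes included large rises. The list had 6 of 20 tested genes higher and 4 lower (median 0.01). Slc7a2, an arginine transporter, stood at 92.3, 56.3, 229 and 218 CPM and rose by 1.59 (SE 0.20, edgeR adjusted p = 0.00116). The untreated libraries differed from each other, but both treated ones were higher. Gch1, which starts synthesis of the cofactor tetrahydrobiopterin, rose by 1.17 (SE 0.10), and Arg2, mitochondrial arginase, by 1.72 (SE 0.29). Nos2, the inducible nitric oxide synthase, stood at 0.14, 0.434, 2.93 and 2.25 CPM, a rise of 3.19 (SE 0.47) from a level near the floor, since 3 counts correspond to 0.14 to 0.162 CPM. Arg1, cytosolic arginase, stood at 10.7, 9.56, 6.99 and 5.41 CPM and fell by 0.71 (SE 0.18, edgeR adjusted p = 0.0332). Its call was lost without any 1 WT library (adjusted p from 0.0515 without R848 replicate 1 to 0.178 without R848 replicate 2), without either untreated KAT8-deficient replicate (0.0564 and 0.0586) and in limma-voom (0.061). Paox, which oxidises polyamines, fell by 0.83 (SE 0.12). Without either R848 replicate the 4 falls of the list became 1, and without either untreated replicate 2.

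Redox genes lay on the raised side. Of 32 NRF2 targets and glutathione genes 12 rose (median 0.25), and leaving out 1 library gave 11 to 13. Slc7a11 (ENSMUSG00000027737, chromosome 3, 49892526 to 50443614, GRCm38), the cystine importer that feeds glutathione synthesis, stood at 53.6, 60.2, 272 and 248 CPM and rose by 2.19 (SE 0.18, edgeR adjusted p = 0.000184). Sod2, the mitochondrial superoxide dismutase, stood at 147, 156, 490.4 and 562 CPM, with a rise of 1.80 (SE 0.13). Txnrd1 (thioredoxin reductase) rose by 1.02 (SE 0.09), Gclm (a subunit of glutamate-cysteine ligase) by 0.97 (SE 0.07) and Hmox1 (heme oxygenase) by 0.47 (SE 0.06). Nfe2l2, the gene of NRF2 itself, rose by 0.67 (SE 0.07).

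Metal transporters and reductases were among the rises. Of 31 iron, heme and metal genes 11 rose and 3 fell, 1 of them by at least 1 (median 0.16). The transporter gene Slc40a1 fell by 0.78, a call lost in DESeq2 (adjusted p = 0.0763). The call of Slc40a1 was also lost without either R848 replicate or untreated replicate 2. Slc31a2, a copper transporter of endosomes, stood at 117, 121, 297 and 302 CPM, a rise of 1.33 (SE 0.11), and Slc31a1, which imports copper, rose by 0.66 (SE 0.06). Slc11a2, the iron transporter DMT1, stood at 146, 157, 298 and 284 CPM and rose by 0.94 (SE 0.11). Steap4, a metalloreductase, rose by 1.11 (SE 0.11), and Slc25a37, which brings iron into mitochondria, by 1.12 (SE 0.09). Lcn2, which binds bacterial iron carriers, rose by 1.39 (SE 0.21). Without R848 replicate 2 the 11 rises became 7, and the 3 falls became 1 without either R848 replicate and 2 without either untreated one.

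The prostaglandin pathway included rises and falls. Ptgs2, the inducible cyclooxygenase, stood at 20.4, 24.7, 52.1 and 47.1 CPM and Ptges, the inducible prostaglandin E synthase, at 16.7, 21.3, 97.7 and 78.6 CPM. Both were higher in each treated library, with changes of 1.14 (SE 0.18) and 2.21 (SE 0.25). The constitutive Ptgs1 fell by 0.40 (SE 0.06), and Hpgds, which makes prostaglandin D2, fell by 0.49 (SE 0.07). Lta4h, which makes leukotriene B4, fell by 0.36 (SE 0.06). The list had 4 of 20 genes higher and 6 lower (median -0.05). The 4 rises became 2 without R848 replicate 1 or without either untreated replicate, and the 6 falls became 4 without either untreated replicate.

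Nucleotide and NAD enzymes held a few large changes. Ampd3, an AMP deaminase, stood at 71.8, 84.7, 200.3 and 198 CPM and rose by 1.35 (SE 0.12, edgeR adjusted p = 0.000258). Adssl1, which works in the opposite direction toward AMP, fell by 0.77 (SE 0.06), and Xdh, xanthine dehydrogenase, fell by 0.59 (SE 0.06). Nampt, the rate-limiting enzyme of NAD salvage, stood at 227, 215, 391 and 373 CPM and rose by 0.79 (SE 0.06), and Nadk, which makes NADP, rose by 0.59 (SE 0.07). Together with the rise of Cd38, the NAD list had 3 of 14 tested genes higher and 1 lower (median -0.04), a fall that was lost without each of the 8 libraries in turn. Sphingolipid genes with rises included Cers6 (0.66, SE 0.07) and Ugcg (0.65, SE 0.09), which make ceramide and glucosylceramide. The glucose transporter gene Slc2a6 rose by 1.65 (SE 0.16), while Slc37a2, a sugar phosphate carrier, fell by 0.84 (SE 0.06).

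In central carbon metabolism, oxidative phosphorylation had few calls, while glycolysis and the TCA cycle had shares of falls above that of all genes. Glycolysis had 1 of 24 genes higher (4.17%) and 3 lower (12.5%, against 6.7% of all genes), with a median of -0.11. The TCA cycle with pyruvate entry had 2 of 35 higher (5.71%) and 4 lower (11.4%), with a median of -0.03. Idh1, cytosolic isocitrate dehydrogenase, stood at 229, 226, 149 and 149 CPM and fell by 0.61 (SE 0.08, edgeR adjusted p = 0.00151). Of 88 nuclear genes of oxidative phosphorylation 1 rose and 0 fell, and of 13 mitochondrially encoded genes 0 rose and 0 fell in edgeR. At an unadjusted p under 0.05, 3 of the 88 were lower and 0 of the 13 changed, and DESeq2 and limma-voom called 0 in these directions. The glycolysis rise was lost without any 1 WT library, and the 2 TCA rises became 0 without either R848 replicate or untreated replicate 2 and 1 without untreated replicate 1 or untreated KAT8-deficient replicate 1. The rise in oxidative phosphorylation was lost without either R848 replicate, untreated replicate 2, either KAT8-deficient R848 replicate or untreated KAT8-deficient replicate 1, and 2 genes rose without untreated replicate 1. The 3 glycolysis falls became 1 without either R848 replicate and 2 without either untreated one or without either untreated KAT8-deficient one, and the 4 falls of the TCA list became 2 without R848 replicate 1 and 1 without R848 replicate 2.

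Among receptors, both directions were well filled. Of 374 tested receptor genes 86 rose (23%) and 56 fell (15%), against 6.94% and 6.7% of all genes, and the median was 0.00. Without R848 replicate 1 the falls became 32.

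Several receptors of bacterial products rose. Tlr2 (ENSMUSG00000027995, chromosome 3, 83836272 to 83841767, GRCm38), the receptor of lipoproteins, stood at 82.1, 78.9, 423 and 407 CPM. Its partner Tlr1 stood at 40.1, 34.8, 82.2 and 86.3 CPM, and Cd14, a cofactor for lipopolysaccharide, at 98.2, 111, 251 and 234 CPM. All 3 were higher in every treated library, with changes of 2.37 (SE 0.15), 1.17 (SE 0.09) and 1.21 (SE 0.12). Tlr8, the other receptor of single-stranded RNA, stood at 66.4, 61.0, 40.9 and 42.4 CPM and fell by 0.61 (SE 0.09, edgeR adjusted p = 0.00224). In all 5 of 15 genes of Toll-like receptors and cofactors rose and 2 fell (median -0.03), with 3 rises without R848 replicate 1 or untreated replicate 2 and 1 fall without R848 replicate 2 or untreated replicate 1. Of 27 cytosolic sensors 9 rose and 4 fell (median 0.13). Mefv (pyrin) rose by 2.05 (SE 0.17) and Nod2, a sensor of muramyl dipeptide, by 1.51 (SE 0.19). Naip1, which senses bacterial secretion needles, fell by 1.08 (SE 0.16), with near-identical Naip genes beside it. The 4 falls became 1 without R848 replicate 1 and 2 without untreated replicate 2.

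C-type lectins had more rises than falls, with 11 of 27 tested genes higher and 2 lower, although 14 of the 27 were above 0 and 13 below (median 0.08). Leaving out each library in turn gave 9 to 11 rises, and 1 fall without either R848 replicate, untreated replicate 2 or either KAT8-deficient R848 replicate. Clec4e (Mincle), which binds mycobacterial glycolipid, stood at 114, 117, 984 and 919 CPM and rose by 3.04 (SE 0.18, edgeR adjusted p = 7.19e-05). Its cluster neighbour Clec4d rose less, by 0.78 (SE 0.07), and Clec5a, a myeloid activating lectin, by 1.28 (SE 0.09). Olr1, the receptor of oxidised LDL, rose by 2.31 (SE 0.19). Cd93 fell by 0.60 (SE 0.06).

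Among 63 tested G protein-coupled receptors 18 rose and 16 fell (median -0.12). The raised ones included receptors of metabolites and peptides. Besides Hcar2, Gpr84 and the formyl peptide receptors, Adora2a, an adenosine receptor, rose by 2.17 (SE 0.21), and Cmklr1, the chemerin receptor, by 0.90 (SE 0.11). The lowered ones included receptors of complement, cannabinoids and nucleotides. C3ar1 stood at 607, 552, 333 and 316 CPM and fell by 0.84 (SE 0.07, edgeR adjusted p = 0.000187). Cnr2, the cannabinoid receptor of leukocytes, fell by 1.00 (SE 0.10), F2r, the thrombin receptor, by 0.83 (SE 0.09), and P2ry6, a UDP receptor, by 0.59 (SE 0.07). The 18 rises became 11 and the 16 falls 10 without R848 replicate 1.

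Chemokine receptors were lower where they changed, apart from a decoy. Of 11 tested genes 3 fell and 1 rose (median -0.38). The fall of Ccr1 (-0.38) was lost with the 4 WT libraries alone, and without either R848 replicate or untreated replicate 1. It was also lost without either untreated KAT8-deficient replicate or KAT8-deficient R848 replicate 1. Cxcr4, the receptor of CXCL12, stood at 76.5, 75.2, 43.1 and 38.4 CPM, lower in both treated libraries, and fell by 0.90 (SE 0.08). Ccrl2, which binds chemerin without signalling, stood at 84.8, 91.1, 235 and 219 CPM and rose by 1.37 (SE 0.12).

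Receptors of cytokines had small changes, and some of the TNF receptor family had large ones. Cytokine receptors had 10 of 52 genes higher and 4 lower (median 0.09), and none reached a change of 1 in either direction. Csf1r, the receptor of M-CSF, stood at 842, 879, 1099 and 1103 CPM and rose by 0.36 (SE 0.06, edgeR adjusted p = 0.00724). Il6ra fell by 0.73 (SE 0.08) and Tgfbr2 by 0.60 (SE 0.06), while Ifnar1 rose by 0.46 (SE 0.07). The 10 rises became 5 without R848 replicate 1, and the 4 falls 2 without R848 replicate 2. In the TNF receptor family 4 of 22 genes rose and 2 fell (median 0.17, and -0.02 with only genes of at least 5 CPM in 2 libraries). Cd40, the receptor of the T cell ligand CD40L, stood at 2.00, 2.50, 17.4 and 16.4 CPM, and Tnfrsf1b (TNFR2) at 886, 963, 2004 and 1971 CPM, with rises of 2.91 (SE 0.21) and 1.10 (SE 0.10). Fas, a death receptor, rose by 1.66 (SE 0.15). The 2 falls of this family became 1 without any 1 WT library.

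Paired immunoglobulin-like receptors, which activate or inhibit myeloid cells, had 14 of 50 genes higher and 7 lower (median 0.13), and 11 to 14 rises and 5 to 7 falls without each library in turn. Cd300e, an activating member, stood at 0.326, 0.489, 4.59 and 4.03 CPM and rose by 3.40 (SE 0.31, edgeR adjusted p = 0.000241), while Cd300lf, an inhibitory member, stood at 173, 157, 82.4 and 88.1 CPM and fell by 0.95 (SE 0.09, edgeR adjusted p = 0.000297). The inhibitory receptor genes Siglece and Pilra rose by 2.15 (SE 0.21) and 2.12 (SE 0.19). Havcr2 (TIM-3) fell by 0.74 (SE 0.10) and Vsir (VISTA) by 0.63 (SE 0.07), while Cd274 (PD-L1) rose by 0.62 (SE 0.09). Fc gamma receptors moved in 2 directions. Fcgr1, the high-affinity activating receptor, stood at 28.6, 24.2, 13.4 and 12.6 CPM and fell by 1.03 (SE 0.14, edgeR adjusted p = 0.00171), and Fcgr2b, the inhibitory one, stood at 194, 188, 293 and 269 CPM and rose by 0.56 (SE 0.07, edgeR adjusted p = 0.00104).

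Receptors for uptake and adhesion included rises and falls. Of 28 scavenger and efferocytosis genes 5 rose and 7 fell (median -0.15). Marco stood at 5.27, 5.43, 19.8 and 19.8 CPM and rose by 1.89 (SE 0.20), and Msr1 rose by 0.62 (SE 0.07). Mertk, which binds dying cells through bridging proteins, stood at 102, 104, 61.6 and 69.1 CPM and fell by 0.66 (SE 0.09), and the integrin gene Itgb5 fell by 0.82 (SE 0.09). The 7 falls became 2 without R848 replicate 1 and 3 without R848 replicate 2 or untreated replicate 2. Icam1 and Vcam1, ligands of leukocyte integrins, rose by 2.03 (SE 0.16) and 1.62 (SE 0.10), whereas Itga6 fell by 0.83 (SE 0.13). Nrp2, a semaphorin and VEGF-C coreceptor, stood at 443, 483, 953 and 953 CPM and rose by 1.04 (SE 0.08).

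**Figure D4:**
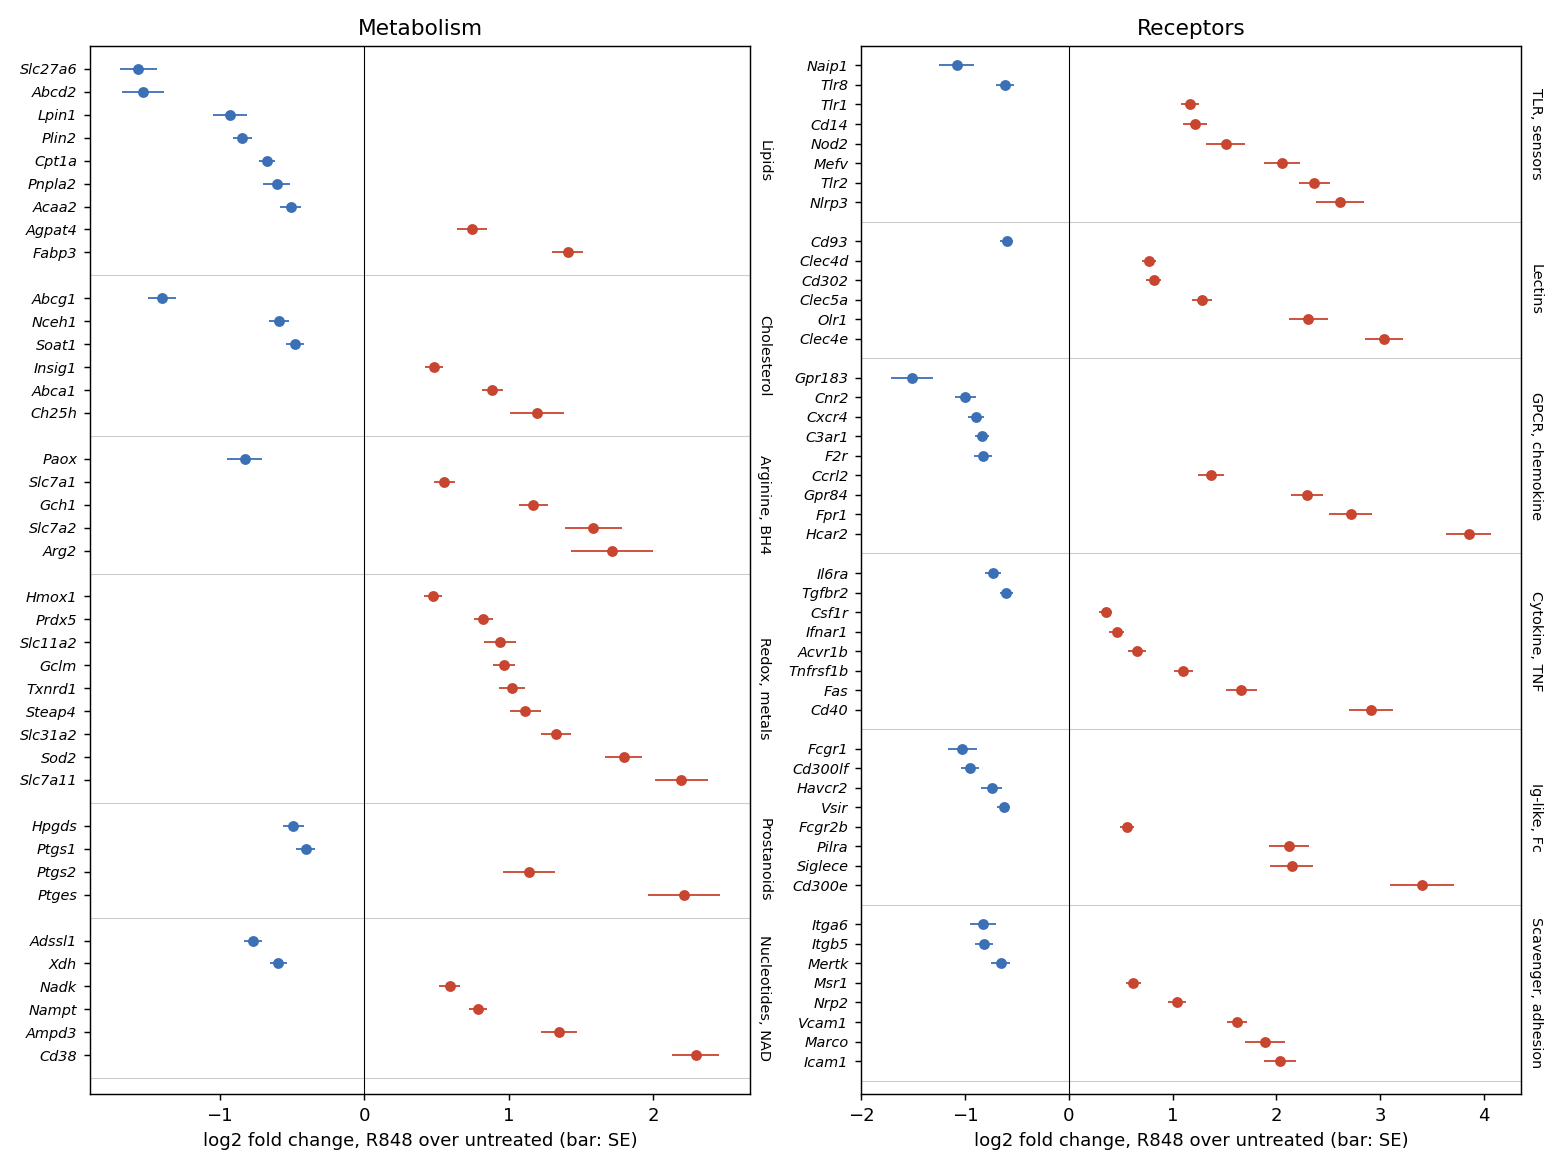
Log2 fold change (R848 over untreated, horizontal axis) with its SE (bar) for metabolic genes (left) and receptor genes (right), most of them named in the text, grouped by pathway or family. Red points rose and blue points fell; most groups hold both, and the redox and metal group holds rises only because the genes drawn were those with rises.

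Feedback inhibitors of signalling were among the rises. Of 27 inhibitors of NF-kB and of cytokine messenger RNA 12 rose and 3 fell (median 0.19), and 10 to 12 rose without each library in turn. Zc3h12c, of the Regnase family that cleaves messenger RNA, stood at 21.1, 20.9, 90.1 and 90.3 CPM and rose by 2.10 (SE 0.13, edgeR adjusted p = 7.19e-05). Its relative Zc3h12d fell by 0.76 (SE 0.11). Irak3, the inhibitory IRAK, rose by 1.57 (SE 0.16), Tnip3 by 1.49 (SE 0.13) and Socs3, an inhibitor of cytokine receptors, by 1.58 (SE 0.14). Of 8 tested SOCS genes with Cish, Socs3 alone rose and 1 fell (median -0.02). Of 20 tested Dusp phosphatase genes 2 rose and 2 fell (10% each, median -0.11). The falls in both lists depended on single libraries. Genes of apoptosis and survival had 19 of 44 higher and 2 lower (median 0.25). Cflar, which blocks caspase-8, stood at 115, 110.1, 262 and 264 CPM and rose by 1.23 (SE 0.09, edgeR adjusted p = 0.0001), and Bcl2a1a and Bcl2a1d rose by 1.67 (SE 0.12) and 1.22 (SE 0.10), with reads that near-identical copies may share. The 19 rises became 11 without untreated replicate 2, 12 without R848 replicate 2 and 13 without R848 replicate 1, and the 2 falls became 1 without either R848 replicate or untreated replicate 2.

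Genes of ribosome assembly and protein turnover had small rises. Of 48 ribosome biogenesis genes 12 rose (median 0.22), and 47 of the 48 were above 0. Of 47 proteasome genes 9 rose (median 0.16), and 43 were above 0. Of 18 immunoproteasome and peptide loading genes 9 rose (median 0.24), and 16 were above 0. Rrs1, a ribosome assembly factor, stood at 62.2, 65.2, 115 and 119.6 CPM and rose by 0.88 (SE 0.09), and Psmd10 (gankyrin) rose by 0.88 (SE 0.08). The 83 cytosolic ribosomal protein genes had 0 calls in edgeR, 2 higher and 0 lower at an unadjusted p under 0.05, and 0 in DESeq2 and limma-voom, with a median of -0.01. These counts depended on single libraries. Without R848 replicate 1 the rises became 1 of 48, 3 of 47 and 1 of 18, and without R848 replicate 2 they became 3, 6 and 3. Without untreated replicate 1 they were 9, 6 and 3, and without untreated replicate 2 they were 5, 5 and 5.

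The falls were many and mostly small. Of the 941 genes that fell, 46.8% fell by less than 0.5, and 8 fell by at least 2. Of the 113 that fell by at least 1, only 30 were in any of the gene lists and 59 stood under 5 CPM in untreated cells. Tmem164 (ENSMUSG00000047045, chromosome X, 142681406 to 142843494, GRCm38), a transmembrane protein gene, had the smallest p of the larger falls. It stood at 211, 224, 54.7 and 56.9 CPM, with the treated libraries far below the untreated ones, and it fell by 1.96 (SE 0.07, edgeR adjusted p = 8.34e-06). Fbxo32 (ENSMUSG00000022358, chromosome 15, 58175879 to 58214932, GRCm38), a ubiquitin ligase subunit of muscle wasting and FOXO programmes, stood at 111, 110.0, 36.4 and 35.2 CPM and fell by 1.63 (SE 0.08, edgeR adjusted p = 4.67e-05).

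The 25 largest falls included Rasgrp3, an exchange factor for Ras. Rasgrp3 stood at 8.29, 7.06, 2.24 and 2.45 CPM and fell by 1.71 (SE 0.25), while its paralogue Rasgrp1, at 1.35, 1.47, 13.7 and 12.6 CPM, rose by 3.21 (SE 0.18). Daam2, a formin of the Wnt pathway, stood at 17.6, 17.4, 4.96 and 5.87 CPM and fell by 1.69 (SE 0.15), and Daam1 rose by 0.69 (SE 0.10). Arhgap19, a GTPase-activating protein gene, fell by 1.24 (SE 0.11), and Rgs2, which shortens G protein signals, stood at 46.7, 42.3, 17.3 and 17.4 CPM and fell by 1.36 (SE 0.12).

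The remaining large falls were of varied function. Cytip, which binds the integrin regulator cytohesin, fell by 1.45 (SE 0.16). Gpr157, an orphan G protein-coupled receptor, fell by 1.27 (SE 0.10). Zfp395 fell by 1.22 (SE 0.12) and Tmem37 by 1.20 (SE 0.18). Angptl7, a secreted angiopoietin-like protein, stood at 28.8, 22.5, 5.39 and 5.62 CPM and fell by 2.22 (SE 0.28, edgeR adjusted p = 0.00128), the largest fall that met the naming rule. Lrrc14b (-1.79) shares its exons with Ccdc127 and Daglb (-1.22) part of its exons with Rac1, so their reads cannot be assigned with certainty. The fall of Socs6, at 68.7, 22.7, 12.4 and 9.85 CPM, was carried by untreated replicate 1. Without that library its log2 change was -1.05 (adjusted p = 0.176 in edgeR), and the call was also lost without R848 replicate 1 (0.134) or 2 (0.166), without either untreated KAT8-deficient replicate (0.061 and 0.0621), in limma-voom (0.0953) and with robust spread (0.1785). The call of Ripor3 (-1.44) was lost without R848 replicate 2 (edgeR adjusted p = 0.0647) or untreated replicate 2 (0.0639), and that of Ahcyl2 (-1.21) without any 1 WT library (0.0598 to 0.114) and with robust spread (0.11).

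Secreted factors included rises and falls. Of 70 growth factors and secreted cytokines 16 rose and 9 fell (median -0.04). Hgf, hepatocyte growth factor, stood at 34.9, 29.4, 14.6 and 13.7 CPM and fell by 1.18 (SE 0.13, edgeR adjusted p = 0.000711). Pdgfc fell by 0.98 (SE 0.12), Tgfb3 by 0.85 (SE 0.09) and Kitl, stem cell factor, by 0.82 (SE 0.13). On the raised side were Il1a (1.81, SE 0.11), Inhba (0.96, SE 0.12) and Adm (1.07, SE 0.13). The 16 rises became 7 without R848 replicate 2, 9 without R848 replicate 1 and 10 without untreated replicate 1. Of 38 growth arrest and p53 targets 8 fell and 4 rose (median -0.20), among them Gadd45g at 69.3, 75.1, 37.7 and 39.0 CPM, a fall of 0.91 (SE 0.10), and Sesn1, a fall of 0.65 (SE 0.08). The 8 falls became 4 without R848 replicate 1, and the 4 rises 2.

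Lysosomal and matrix genes had more falls than rises. Of 79 lysosome and autophagy genes 10 fell and 7 rose (median -0.10), and 57 were below 0. Mcoln2, an endolysosomal channel, was an exception, at 61.4, 72.0, 178 and 173 CPM, a rise of 1.40 (SE 0.11). The 10 falls became 1 without R848 replicate 1, 3 without R848 replicate 2, 15 without untreated replicate 1 and 4 without untreated replicate 2, and the 7 rises 2, 2, 4 and 2. Of 37 matrix proteases and inhibitors 9 fell and 3 rose (median -0.15), with Adam8 at 516, 547, 328 and 337 CPM, a fall of 0.68 (SE 0.06), and Mmp14 at 492, 554, 808 and 838 CPM, a rise of 0.65 (SE 0.09). Those 9 falls became 4 and 3 without R848 replicates 1 and 2, and 6 without either untreated replicate or without either untreated KAT8-deficient replicate.

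Markers of other cell types were present in the cultures and were among the falls. Of 33 tested markers of stromal, smooth muscle, endothelial and mesothelial cells 12 fell (36.4%) and 1 rose, with a median of -0.30. The 12 falls became 4 without R848 replicate 1 or untreated replicate 2 and 7 without R848 replicate 2, and the rise was lost without any 1 WT library. Summed fibroblast and stromal markers held 6474, 7679, 5872 and 6665 CPM, so the sums of the groups overlapped. Fn1 alone held 3418, 4094, 3295 and 3852 CPM of these sums, and 11 of the 12 tested members were below 0. Summed markers of smooth muscle and pericytes held 599, 649, 529 and 526 CPM, those of endothelium 129, 153, 108 and 109.8, and those of mesothelium 497, 505, 406 and 411, each lower in both treated libraries. Defining endothelial genes were near absent, since Emcn had 0 counts in all 4 libraries and Pecam1 had 1, 3, 2 and 2. Mesothelial and stromal genes were clearly present, with Upk3b at 172.5, 159.7, 147.7 and 146.5 CPM. Of these lists, the stable falls were those of Cxcl12 (-0.50, SE 0.07), Kdr (-0.68, SE 0.11), Krt18 (-0.91, SE 0.15) and Upk1b (-0.41, SE 0.07). The macrophage list, which held 17150, 17220, 18070 and 16600 CPM, had 3 rises and 3 falls. The part of other cell types in the falls described above was not tested.

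**Figure D5:**
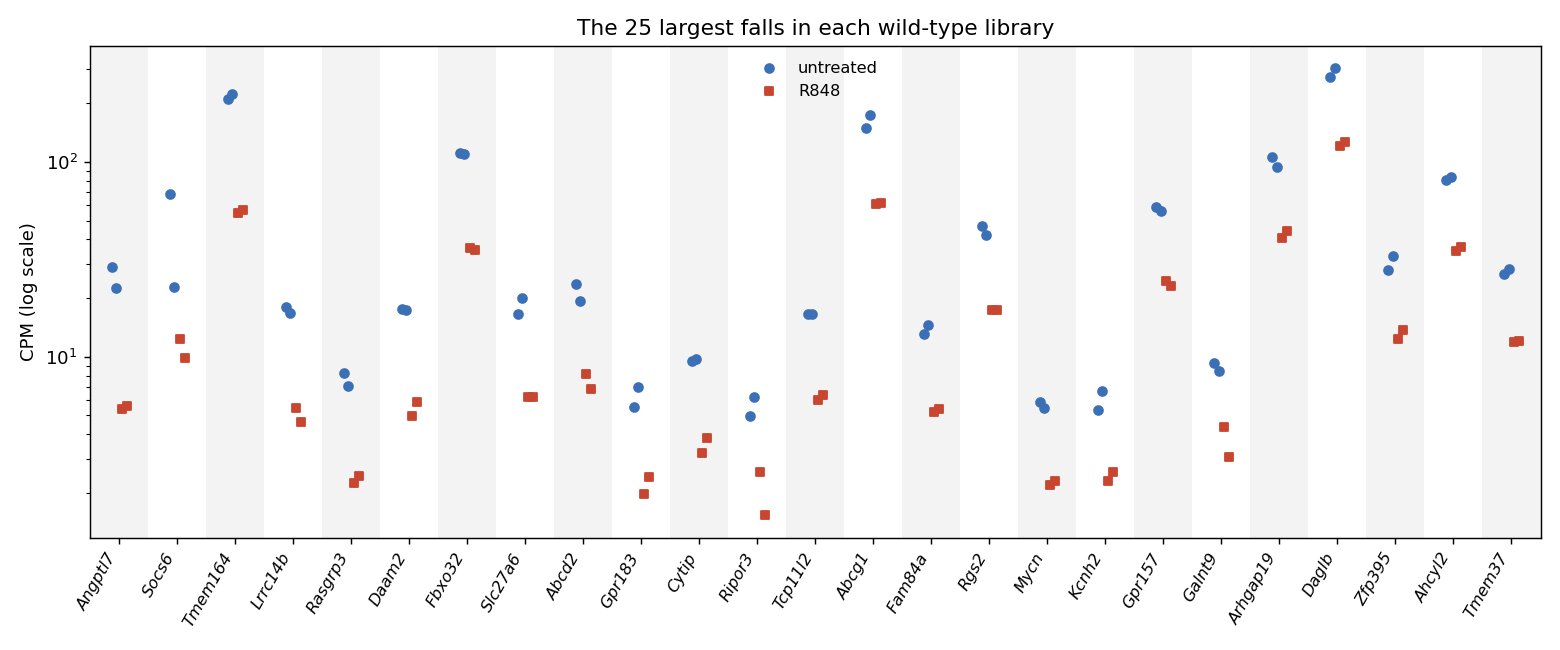
CPM (vertical axis, log scale) of the 25 genes with the largest falls that met the naming rule, in each WT library, with blue circles for untreated and red squares for R848. Treated libraries lie below untreated ones for every gene, and Socs6 is the gene whose 2 untreated libraries, at 68.7 and 22.7 CPM, lie far apart.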

How the data were processed

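Messenger RNA of 8 BMDM libraries was sequenced after bead capture, per the labels' protocols. The table that the authors deposited holds whole-number counts for each Ensembl gene, with a column for each library, per the file headers. The submitters' processing notes name HISAT2, StringTie 1.3.0, edgeR and the mm10 genome, without saying what each did. Annotation, strand and counting settings were not given in the sources used here, and genes that overlap or have near-identical copies are therefore uncertain. Columns were assigned to samples by their names, and 0 stayed unassigned. Symbols and positions came from GENCODE M21 on GRCm38, the same build as mm10, for 34344 of 34745 genes, and the rest held 0.102% of counts.

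Low genes were removed with filterByExpr, which left 14040 genes with 99.95% of counts. TMM normalisation was applied, and the 8 libraries together were fitted with the quasi-likelihood model of edgeR 4.0.16 in R 4.3.3, 1 mean per group, with 4 residual degrees of freedom. The contrast was R848 minus untreated in WT, two-sided, with Benjamini-Hochberg adjustment and a threshold of 0.05. The SE was taken as the size of the log2 change over the square root of its F statistic. The method was tested on simulated counts. It recovered 43.3% of 67 changes of 0.5, 86.6% of 67 changes of 1 and 97% of 66 changes of 2. It also called 13 of 13840 unchanged genes. Many small changes can therefore be missed. Changed genes were drawn only from those above a minimum count, and were a smaller share than the 13.6% called in the data. Recovery in the data may therefore differ, and recovery of genes with low counts was not measured. Replicates differed by more than counting error (chi-square per degree of freedom 12.7 untreated and 9.32 under R848). The floor of 3 counts, 0.14 to 0.162 CPM, covers counting error only.

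In all, 79 gene lists and 11 lists of cell type markers were described by counts and medians, with no set test. Members, lists and tests were chosen with earlier results of these data known. Named genes were the 25 largest rises and falls whose higher group reached 5 CPM, whose groups did not overlap and whose names were not predicted ones, up to 5 called members with the smallest adjusted p each way per list, every called transcription factor with a change of at least 1, and 13 genes always given. Adora2a, Cd274, Cmklr1, Kitl, Lcn2, Nfe2l2, Nfkbib, Nfkbid and Slc2a6 and the cell marker genes named for themselves fell outside this rule and were chosen after their values were seen. Alternatives were DESeq2 1.42.0 (size factors or Wald test), limma 3.58.1 (voom), robust spread, 2 other filters, the 4 WT libraries alone, a replicate block, an added fold threshold and leaving out each library.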

Additional observations from a re-analysis of the deposited data

How the results depend on the processing

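The counts of genes that rose and fell (975 and 941) stayed within 1.5 times under the other tools, scalings and filters, with 784 (DESeq2) to 1037 (robust spread) rises and 723 (4 WT libraries alone) to 1036 (no filter) falls. A log2 change of at least 0.5 as well as the adjusted p left 546 and 501. Leaving out each library in turn, with the lone sample of a group assumed to vary like the others, gave 475 to 933 rises and 402 to 913 falls, fewest without R848 replicate 1, and 261 to 343 genes changed by at least 1 (354 in all libraries). Of 475 called genes that the naming rule gives, 258 kept their call in every alternative that gave them an adjusted p, and 0 reversed. Of list counts under the alternatives, 2405 of 2880 stayed within 1.5 times. Medians changed sign for the TNF receptor family (-0.02 against 0.17) with at least 5 CPM in at least 2 libraries, and RGS genes (0.004 against -0.20) without untreated replicate 2, with -0.292 to 0.004 over the libraries left out. They also changed sign for dendritic cell markers (0.008 with the 4 WT libraries alone and 0.003 with that filter, against -0.18), lymphoid markers (-0.54 against 0.21) without R848 replicate 1, with 0.703 as their highest without R848 replicate 2, and erythroid and megakaryocyte markers (-0.012 against 0.14) without untreated replicate 1. For these medians the cause was not tested. A replicate block gave 913 rises and 864 falls, and 331 changes of at least 1. Replicate numbers are shared between groups, but same-numbered WT libraries did not deviate together (correlation -0.04), so the numbers were not taken as a pairing. Depth limits low genes most: 59 of the 113 falls of at least 1 stood under 5 CPM.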

Other observations

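Pairs of related genes in which 1 member rose and the other fell recurred in these data, a set picked after the values were seen. Besides those given above (Hif1a and Epas1, Cebpd and Cebpa, Abca1 and Abcg1, Ptgs2 and Ptgs1, Rasgrp1 and Rasgrp3, Daam1 and Daam2, Fcgr2b and Fcgr1), Rab GTPases held Rab32 at 119, 110.1, 204 and 190.1 CPM, a rise of 0.78 (SE 0.07), and Rab7b at 253, 236, 155 and 154 CPM, a fall of 0.66 (SE 0.06). Among solute carriers of different families were Slc4a7, a bicarbonate transporter, at 48.7, 46.6, 83.0 and 84.4 CPM, a rise of 0.81 (SE 0.07), and Slc46a3, a lysosomal carrier, at 16.4, 20.0, 7.79 and 8.53 CPM, a fall of 1.15 (SE 0.19). The histone deacetylase gene Hdac5 fell by 0.76 (SE 0.11) and the demethylase gene Kdm7a rose by 0.49 (SE 0.08). Pla2g15, a lysosomal phospholipase, stood at 163, 175, 109.9 and 114 CPM and fell by 0.59 (SE 0.06).

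Circadian clock genes had 1 of 20 higher (5%) and 4 lower (20%), with a median of -0.23. F-box genes had 3 of 53 lower (5.66%, below the 6.7% of all genes), and fewer without either R848 replicate. The F-box median was -0.07. The 4 clock falls became 1 without R848 replicate 1 and 2 without R848 replicate 2 or untreated replicate 1, and the rise was lost without any 1 WT library or either untreated KAT8-deficient replicate. Translation initiation factors had 11 of 52 higher and 1 lower (median 0.14), and the 11 became 2 without R848 replicate 1 and 3 without R848 replicate 2 or untreated replicate 2. Their 1 fall was kept in just 1 of the 8 fits with a library left out, that without untreated replicate 1. Complement component genes had 3 of 15 higher (median 0.08), among them C3 at 495, 527, 723 and 727 CPM, a rise of 0.50 (SE 0.06), and the 3 became 1 without either R848 replicate or untreated replicate 2. Of 6 tested dendritic cell markers Dpp4 was called lower, a call lost without any 1 WT library, and Flt3 and Siglech had 0 counts in all WT libraries. Of 5 tested neutrophil markers Camp was called higher, at 1, 0, 14 and 15 counts, a call lost without untreated replicate 2 (edgeR adjusted p = 0.0524). Osteoclast markers had 1 of 7 higher and 3 lower, and the 3 became 1 without either R848 replicate or untreated replicate 2, while the rise was lost without any 1 WT library and became 2 without either KAT8-deficient R848 replicate. Of 6 tested lymphoid, erythroid and megakaryocyte markers 0 were called in edgeR and limma-voom, with 1 lymphoid marker at an unadjusted p under 0.05 and 1 called in DESeq2. Kit, tested among the mast cell markers, held 10, 17, 29 and 38 counts and did not pass.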
